A study of Mus musculus with 21 samples.

Results

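The genes of calcium cycling in heart muscle, Atp2a2, Ryr2, Casq2 and Pln, were followed in a sequencing series on mouse hearts with a deleted nuclear lamina gene. Their 3′ UTR intervals were found by position: every interval of the deposited table inside a fixed window of each gene on its strand (build mm39), and of overlapping intervals the one with the most reads. This kept 15 of the 208307 intervals in the table, with 2 for Atp2a2, 2 for Ryr2, 10 for Casq2 and 1 for Pln. Of the 15, 14 held at least 1 read, 13 passed the filter on low counts for a test of level, and 9 had enough converted reads for a test of label.

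Each heartbeat depends on calcium that leaves and re-enters the sarcoplasmic reticulum, the internal calcium store of the muscle cell. Ryr2 encodes the ryanodine receptor, the channel through which the store releases calcium, and Casq2 encodes calsequestrin 2, the protein that buffers calcium inside the store. Atp2a2 encodes the SERCA2 pump that returns calcium to the store, and Pln encodes phospholamban, a small membrane protein that restrains this pump until it is phosphorylated. Atp2a2 makes a heart and slow muscle form and a broadly expressed form of the pump, which differ at their 3′ ends; the table does not pair its intervals with these forms.

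The method, SLAM-IT-seq, marks newly made RNA: cells with the transgenic enzyme Uprt (uracil phosphoribosyltransferase) build 4-thiouracil into their RNA more readily than others, and after iodoacetamide treatment such a base is read as a T>C conversion. The 21 mice formed 4 groups. Those with Uprt were 6 Lmna F/F mice, of which 4 were female, and 8 Lmna +/+ mice, of which 4 were female. Those lacking Uprt were 4 Lmna F/F mice, of which 2 were female, and 3 male Lmna +/+ mice. Lmna encodes lamin A/C, and F is the floxed allele. All mice of every group carried Myh6MCM Tg/0, a tamoxifen-activated Cre driven by the cardiomyocyte promoter of Myh6, so the control hearts had the same Cre. All received tamoxifen at 6 to 8 weeks of age on 4 days and 4-thiouracil 2 weeks later, and RNA of the left ventricular free wall was taken 6 hours after that. The wall also holds cells in which that promoter is not active, and in such bulk tissue fewer cells of a type and less RNA per cell cannot be told apart. Cell type markers and Lmna itself were not analysed here, because the table's transcript IDs come with no gene names.

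The libraries held 25975911 to 51007428 reads on the 64985 separate intervals with a read, and 1125790 to 2421214 of those reads had a T>C conversion. The file's own genotype field matched the group in 21 of 21 libraries, and 0 libraries had counts identical to another. Because the sexes were unequal between groups, sex was a term in every main edgeR fit. The exact permutation tests below had no such term, so sex was not adjusted for in them. Among Lmna +/+ mice without Uprt no female was measured. Levels are given as CPM, the reads of an interval scaled to a common library size with TMM factors. Reads come from the 3′ ends of transcripts, and a level is compared between groups for 1 interval and not between genes.

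The pump gene Atp2a2 had both intervals on the minus strand of chromosome 5. The distal end, chr5:122591576-122592367, held 3023518 reads over all libraries, and the proximal end, chr5:122593956-122595213, held 72617. In hearts without Uprt the distal end fell in Lmna F/F, and it was the one interval of the 13 tested that passed the test between Lmna genotypes in level. Its values were 2199, 2451, 3271 and 3365 CPM in Lmna F/F mice without Uprt, against 5182, 4031 and 4356 CPM in Lmna +/+ mice without Uprt. Every Lmna F/F value lay below every Lmna +/+ value. How many of all intervals separate in this way was not counted, here or for the separations given below. The log2 change, Lmna F/F over Lmna +/+, was -0.64 ± 0.17 (SE), with an adjusted p of 0.0227 by edgeR's quasi-likelihood test. Of all 31327 intervals tested 5.17% were called in this comparison and 1.72% were called lower.

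In hearts with Uprt the same end had a lowest, median and highest value of 3160, 3449 and 3700 CPM in Lmna F/F mice, against 3235, 4294 and 5519 CPM in Lmna +/+ mice. The Lmna F/F mice lay at the lower part of the Lmna +/+ range, and the groups overlapped. The log2 change was -0.27 ± 0.12 (SE, edgeR adjusted p = 0.26), with a 95% interval of -0.50 to -0.04, which takes the normal range of the standard error. Here 2.45% of all intervals were called and 0.265% were called lower, while edgeR called 0 of the 13 intervals of the calcium cycling genes (5 had an unadjusted p below 0.05, and by DESeq2 1 of the 6 most read was called). The difference between both Lmna effects was 0.37 on the log2 scale with an interval from -0.02 to 0.76 (edgeR adjusted p = 0.735), so the effect with Uprt was not shown to be smaller than that without.

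The call without Uprt rested on few mice. It was lost without Lmna F/F no Uprt replicate 1 (-0.50, edgeR adjusted p = 0.142), when Lmna +/+ no Uprt replicate 1 (-0.53, adjusted p = 0.141) or replicate 3 (-0.67, adjusted p = 0.0534) was left out, and when only the 7 mice without Uprt entered the fit (-0.71, adjusted p = 0.246). Within males the order was the same, with 2199 and 3365 CPM in both Lmna F/F males and at least 4031 CPM in the 3 Lmna +/+ males.

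The proximal end of Atp2a2 ranged from 74.7 to 89.8 CPM with a median of 80.9 in Lmna F/F mice with Uprt, against 77.6 to 108.9 CPM with a median of 93.1 in Lmna +/+ mice with Uprt. Without Uprt it stood at 78.4, 93.5, 100.1 and 77.4 CPM in Lmna F/F mice, against 105.1, 96.5 and 103.7 CPM in Lmna +/+ mice. The ranges overlapped in both comparisons. The log2 changes were -0.21 ± 0.09 with Uprt and -0.27 ± 0.14 without (SE, edgeR adjusted p = 0.305 and 0.311), and neither passed the test.

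Of the reads on both ends, the proximal one took 3.08% ± 0.63 in Lmna F/F mice without Uprt (SD, n = 4) and 2.22% ± 0.20 in Lmna +/+ mice without Uprt (SD, n = 3). With Uprt it took 2.32% ± 0.26 in Lmna F/F (SD, n = 6) and 2.22% ± 0.41 in Lmna +/+ (SD, n = 8). The two-sided exact permutation p was 0.114 without Uprt, where 0.0286 is the smallest possible, and 0.582 with Uprt, so no shift between both ends passed the test.

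The release channel gene Ryr2 had its main end at chr13:11567988-11569401 on the minus strand, with 150435 reads over all libraries. A second interval, chr13:11785926-11787287, lies upstream within the window and held 15612. In hearts with Uprt the main end had a lowest, median and highest value of 146.9, 162.3 and 187.4 CPM in Lmna F/F mice, against 146.3, 224.4 and 241.6 CPM in Lmna +/+ mice. All but 1 of the Lmna +/+ mice lay above the highest Lmna F/F mouse, and the exception, Lmna +/+ Uprt replicate 8, was the lowest of both groups. The log2 change was -0.36 ± 0.11 (SE, edgeR adjusted p = 0.0887), with a 95% interval of -0.57 to -0.14, and did not pass the test. It passed without Lmna +/+ Uprt replicate 8 (-0.44, edgeR adjusted p = 0.0152), in the 14 mice with Uprt alone (-0.35, edgeR adjusted p = 0.0419) and with DESeq2 (-0.37, adjusted p = 0.0437).

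In hearts without Uprt the main end of Ryr2 stood at 117.7, 158.5, 163.1 and 165.3 CPM in Lmna F/F mice, against 226.0, 180.7 and 213.3 CPM in Lmna +/+ mice. The groups did not overlap, with Lmna F/F lower. The log2 change of -0.40 ± 0.16 (SE, edgeR adjusted p = 0.171) did not pass the test, and its 95% interval ran from -0.72 to -0.08. The Lmna effects with and without Uprt differed by 0.04 on the log2 scale, with an interval of -0.33 to 0.42 (edgeR adjusted p = 0.978).

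The upstream interval of Ryr2 did not pass the test in either comparison. With Uprt it averaged 21.1 ± 2.43 CPM in Lmna F/F mice (SD, n = 6) and 20.95 ± 5.12 CPM in Lmna +/+ mice (SD, n = 8), a log2 change with an interval of -0.29 to 0.30 (edgeR adjusted p = 0.994). Without Uprt it averaged 15.4 ± 2.79 CPM in Lmna F/F (SD, n = 4) and 18.0 ± 3.02 CPM in Lmna +/+ (SD, n = 3), a log2 change of -0.25 with an interval of -0.68 to 0.18 (edgeR adjusted p = 0.646). Its part of the reads on both intervals with Uprt was 11.3% ± 1.40 in Lmna F/F mice (SD, n = 6) and 8.85% ± 1.68 in Lmna +/+ mice (SD, n = 8). For the difference of 2.48 percentage points the exact permutation test (two-sided) gave p = 0.0137, and 0.0822 after adjustment over the 6 comparisons of this kind, so it failed the correction. Without Uprt the parts were 9.34% ± 1.67 in Lmna F/F (SD, n = 4) and 8.15% ± 2.17 in Lmna +/+ (SD, n = 3), with an exact permutation p of 0.371.

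The buffer gene Casq2 had its main end at chr3:102052747-102053830 on the plus strand, with 992800 reads over all libraries. With Uprt this end had a lowest, median and highest value of 953.5, 1180 and 1347 CPM in Lmna F/F mice, against 1001, 1365 and 1689 CPM in Lmna +/+ mice, and the groups overlapped. Without Uprt it stood at 887.3, 874.9, 1129 and 1306 CPM in Lmna F/F mice, against 1309, 1349 and 1426 CPM in Lmna +/+ mice. The highest Lmna F/F value without Uprt was just under the lowest Lmna +/+ value, so these groups did not overlap. The log2 changes were -0.15 with Uprt (interval -0.37 to 0.06, edgeR adjusted p = 0.59) and -0.30 without (interval -0.62 to 0.02, edgeR adjusted p = 0.355). Neither passed the test.

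**Figure D1:**
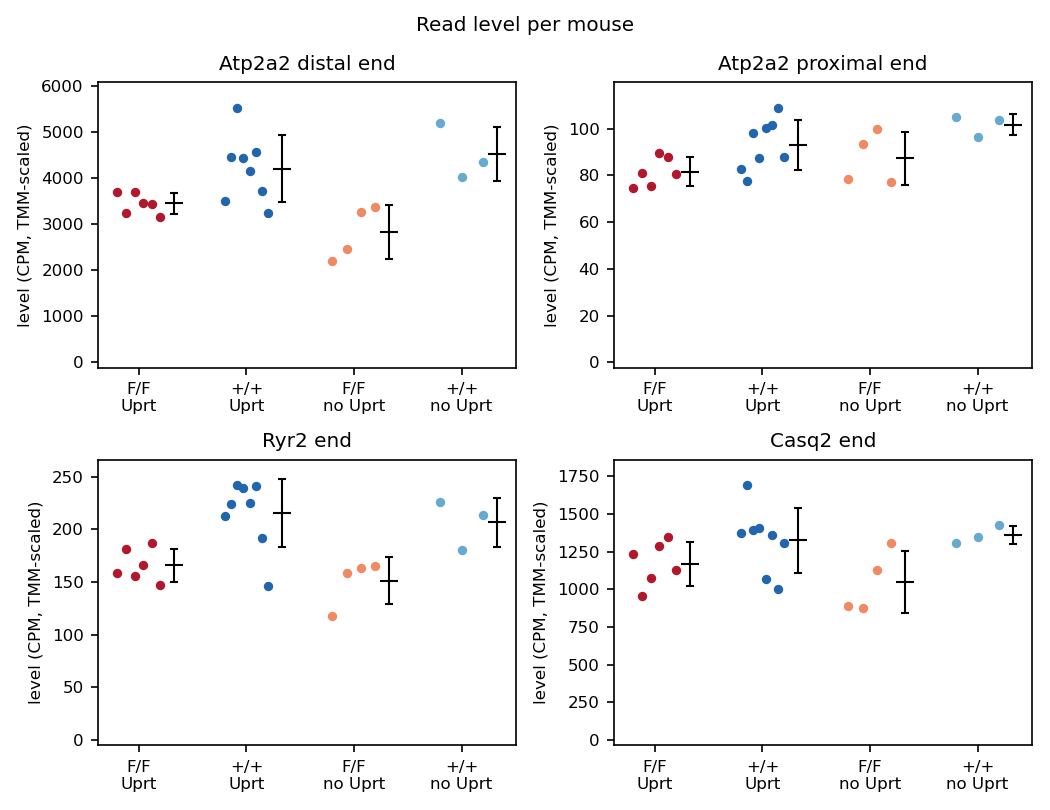
Level of the main intervals in CPM (y axes, from 0) for each mouse in the 4 groups (x axes: Lmna genotype and Uprt). Points are mice and the black bars are the mean ± SD. Without Uprt the Lmna F/F mice lie below all Lmna +/+ mice at the Atp2a2 distal end, Ryr2 end and Casq2 end, and overlap them at the Atp2a2 proximal end. Of these ends only the Atp2a2 distal end passed edgeR's test without Uprt. The share of all intervals that separate in this way was not counted.

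The other 9 Casq2 intervals held fewer reads. The one just upstream of the main end, chr3:102052513-102052664, had 262353 reads and averaged 346.9 ± 55.5 CPM in Lmna F/F mice with Uprt (SD, n = 6) and 353.5 ± 49.3 CPM in Lmna +/+ mice with Uprt (SD, n = 8). Without Uprt it averaged 260.4 ± 31.2 CPM in Lmna F/F (SD, n = 4) and 302.1 ± 50.1 CPM in Lmna +/+ (SD, n = 3). Neither difference passed edgeR's test, with log2 changes of -0.01 and -0.15 (adjusted p = 0.98 and 0.723). The next 8 intervals held 13600 reads over all libraries at most, and 1 of them held 0. Another, chr3:102035257-102035302 with 66 reads, lay higher in CPM in every Lmna F/F than in every Lmna +/+ mouse without Uprt. The closest mice were Lmna F/F no Uprt replicate 2 (0.051 CPM) and Lmna +/+ no Uprt replicate 3 (0.043 CPM). Each of them held 2 reads, so only library size set them apart. The interval had too few reads for the test of level.

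Among these less read intervals, the one at chr3:102041931-102044812, singled out after its values were seen, had a larger mean in Lmna F/F hearts of the Uprt mice. Its level ran from 7.92 to 16.9 CPM with a median of 10.2 in Lmna F/F mice with Uprt, against 1.60 to 16.6 CPM with a median of 5.57 in Lmna +/+ mice with Uprt. The log2 change was 0.94 ± 0.28 (SE, edgeR adjusted p = 0.0711) and did not pass. In mice without Uprt it was -0.26 ± 0.41 (SE, edgeR adjusted p = 0.834).

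Over the 13 intervals tested, the median log2 change between Lmna genotypes was 0.005 with Uprt and -0.25 without, beside 0.01 and 0.03 over all 31327 intervals. The 13 are mostly Casq2 intervals, several with few reads, and include the Pln window interval with 183 reads. The main ends of Atp2a2, Ryr2 and Casq2 had estimates of -0.27, -0.36 and -0.15 with Uprt, and -0.64, -0.40 and -0.30 without. Of these only -0.64 passed edgeR's test. The plot of Lmna effects shows the estimates of the 6 most read intervals. The comparison of mice with and without the transgene called the level of 0 of the 13 intervals (0.115% of all intervals were called there; 3 of the 13 had an unadjusted p below 0.05, and by DESeq2 0 of the 6 most read were called), with log2 estimates of 0.12 at the Atp2a2 distal end, 0.12 at the Ryr2 end and 0.11 at the Casq2 end (edgeR adjusted p = 0.749, 0.705 and 0.764). Those 3 were less read intervals, all higher with Uprt. They were the Casq2 upstream interval (0.36), the Ryr2 upstream interval (0.32) and the Casq2 interval chr3:102051367-102051544 (0.29). Their edgeR adjusted p-values were 0.17, 0.402 and 0.382. For a difference in level between the Lmna effects with and without Uprt, edgeR called 0 of 31327 intervals of the series (2204 were below an unadjusted p of 0.05), DESeq2 called 8 and edgeR without a low-count filter called 329.

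**Figure D2:**
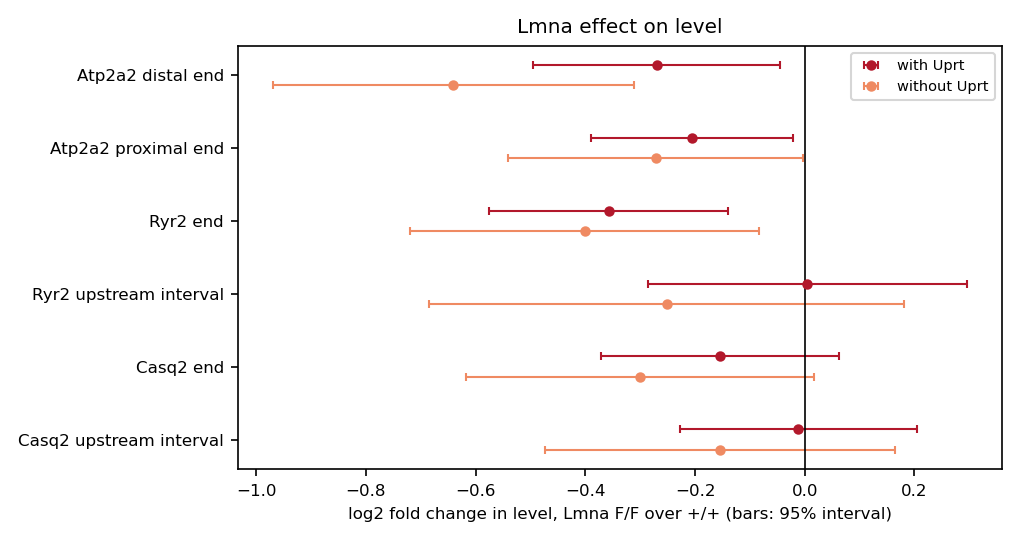
Log2 fold change in level, Lmna F/F over Lmna +/+ (x axis), for the 6 most read intervals of Atp2a2, Ryr2 and Casq2 (y axis), with Uprt and without Uprt. Points are edgeR estimates and bars are 95% intervals. The estimate farthest from 0 is that of the Atp2a2 distal end without Uprt, at -0.64.

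The level of Pln could not be read from its window. The single interval there, chr10:53095363-53096559 on the plus strand, held 183 reads over 21 libraries, and 3 libraries held 0. Its level averaged 0.358 ± 0.137 CPM in Lmna F/F mice with Uprt (SD, n = 6), 0.140 ± 0.073 CPM in Lmna +/+ mice with Uprt (SD, n = 8), 0.214 ± 0.195 CPM in Lmna F/F mice without Uprt (SD, n = 4) and 0.152 ± 0.165 CPM in Lmna +/+ mice without Uprt (SD, n = 3). The log2 change between Lmna genotypes with Uprt was 1.30, with an interval of -0.16 to 2.75 (edgeR adjusted p = 0.462). With 16 T>C reads, found in 3 libraries, no test of label was made. These values describe that interval and give no measure of phospholamban RNA.

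The most read plus-strand interval within 200 kb lies 121 kb away, at chr10:53220119-53222083, with 3844939 reads; it was chosen after its reads were seen, and the files give it no gene name. With Uprt it ranged from 3610 to 4638 CPM with a median of 3916 in Lmna F/F mice, against 4862 to 6350 CPM with a median of 5562 in Lmna +/+ mice. Without Uprt it stood at 2809, 2570, 5029 and 4063 CPM in Lmna F/F mice, against 5542, 5362 and 5958 CPM in Lmna +/+ mice. The groups did not overlap in either comparison. The log2 changes of -0.49 ± 0.12 with Uprt and -0.69 ± 0.17 without (SE) passed edgeR's test (adjusted p = 0.0218 and 0.0176).

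The levels of the main ends varied together across mice. Over the 21 libraries, log2 CPM of the Atp2a2 distal end had a Pearson r of 0.855 with the Ryr2 end and 0.698 with the Casq2 end, and the Ryr2 end had 0.583 with the Casq2 end. The Atp2a2 distal and proximal ends had 0.412. These values describe libraries that share scaling and genotype. Of about 6529 tested intervals with at least 10 CPM on average, the most alike were chr11:69833369-69834194 on the minus strand for the Atp2a2 distal end (r = 0.96, rho = 0.903), chr3:97597140-97598127 on the minus strand for the Ryr2 end (r = 0.893, rho = 0.823) and chr4:130209019-130209256 on the plus strand for the Casq2 end (r = 0.888, rho = 0.877). The files name no gene for these 3 intervals.

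The share of T>C reads was higher with Uprt at 8 of the 9 intervals tested, beside 57.4% of all 13298 intervals tested (57.6% in either direction). All intervals entered this test by having enough T>C reads in mice of any group. The Ryr2 upstream interval, and the Casq2 intervals other than its main end and upstream interval, entered through mice with Uprt. That favours a higher share with Uprt, so their calls were not independent of how they were chosen. At the Atp2a2 distal end the share had a lowest, median and highest value of 4.17%, 4.55% and 4.82% in Lmna F/F mice with Uprt, against 2.53%, 2.42%, 2.66% and 2.60% in the 4 Lmna F/F mice without Uprt. In Lmna +/+ mice it was 3.51%, 4.20% and 5.09% with Uprt, against 2.19%, 2.84% and 2.71% in the 3 mice without Uprt. Mice with and without Uprt did not overlap. The log2 odds ratio was 0.76 ± 0.08 (SE, edgeR adjusted p = 6.83e-08), below the median of 1.20 over all intervals.

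The shares without Uprt are the background of conversions in hearts that lack the transgene. At the Atp2a2 distal end the mean share without Uprt amounted to 56.2% of the mean with Uprt in Lmna F/F and 61.3% in Lmna +/+. The depth behind each share at this end was at least 92639 reads in every mouse.

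At the proximal end of Atp2a2 the label rose further. The lowest, median and highest share was 5.76%, 9.45% and 11.6% in Lmna F/F mice with Uprt, against 1.82%, 2.14%, 1.60% and 1.60% in Lmna F/F mice without Uprt. In Lmna +/+ mice it was 5.44%, 6.45% and 13.01% with Uprt, against 2.15%, 2.82% and 1.59% without Uprt. The log2 odds ratio was 2.07 ± 0.20 (SE, edgeR adjusted p = 4.52e-08), which stood at percentile 80.5 of all intervals, while the distal end stood at percentile 32.1.

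Because the ends differ in T content, they were also compared within each mouse by conversions per 1000 read T bases. This comparison between intervals of a gene was not planned and was added after seeing the data. The proximal end carried more than the distal end in 6 of 6 Lmna F/F and 8 of 8 Lmna +/+ mice with Uprt, with mean ratios of 1.78 and 1.59, and less in all mice without Uprt, with mean ratios of 0.583 in Lmna F/F and 0.716 in Lmna +/+. The difference, proximal minus distal, averaged 1.43 ± 0.69 with Uprt (SD, n = 6) and -0.40 ± 0.12 without Uprt (SD, n = 4) in Lmna F/F (two-sided exact permutation p = 0.00476, the smallest possible for these groups). In Lmna +/+ it averaged 1.03 ± 0.89 with Uprt (SD, n = 8) and -0.28 ± 0.21 without Uprt (SD, n = 3), with an exact permutation p of 0.0424. After adjustment over the 6 comparisons of this kind the p was 0.0286 in Lmna F/F, which passed, and 0.0636 in Lmna +/+, which did not. The Lmna +/+ value also missed an unadjusted 0.05 in 9 of the 11 omissions of a single mouse, with differences of 1.02 to 1.45.

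The main end of Ryr2 had the highest background of the main ends. Its share had a lowest, median and highest value of 9.67%, 10.2% and 11.4% in Lmna F/F mice with Uprt, against 8.21%, 8.52%, 7.77% and 8.97% in Lmna F/F mice without Uprt. In Lmna +/+ mice it was 8.80%, 9.79% and 10.5% with Uprt, against 6.89%, 10.3% and 8.95% without Uprt. The ranges were apart in Lmna F/F and overlapped in Lmna +/+, and the mean without Uprt was 80% and 89.3% of that with Uprt in Lmna F/F and Lmna +/+. The log2 odds ratio was 0.27 ± 0.11 (SE, edgeR adjusted p = 0.0412), at percentile 15.3. This call was lost in 11 of the 21 omissions of a single mouse, the lowest value being 0.19 without Lmna +/+ no Uprt replicate 1 (edgeR adjusted p = 0.181).

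The upstream interval of Ryr2 had little background and a larger rise. Its share had a lowest, median and highest value of 3.76%, 8.36% and 14.4% in Lmna F/F mice with Uprt, against 2.57%, 0%, 0.896% and 1.50% in Lmna F/F mice without Uprt. In Lmna +/+ mice it was 3.596%, 7.44% and 12.1% with Uprt, against 0%, 2.11% and 0.901% without Uprt. All mice with Uprt lay above all without it in the same genotype. The log2 odds ratio was 3.19 ± 0.51 (SE, edgeR adjusted p = 1.75e-05), at percentile 96.1. The interval entered the test through its T>C reads in mice with Uprt, which favours such a rise and such a percentile. Its T>C reads summed to 459 in Lmna F/F and 428 in Lmna +/+ mice with Uprt, against 30 and 25 without Uprt. These shares rest on 382 to 996 reads a mouse, so single values are uncertain. The shares of 0 came from 748 reads in Lmna F/F no Uprt replicate 2 and 586 in Lmna +/+ no Uprt replicate 1, where 3 counts set upper limits of 0.401% and 0.512%.

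Per 1000 T bases the upstream interval minus the main end of Ryr2 averaged 0.44 ± 1.63 with Uprt (SD, n = 6) and -2.62 ± 0.20 without Uprt (SD, n = 4) in Lmna F/F. The two-sided exact permutation p was 0.0143, and 0.0364 after adjustment over the same 6 comparisons. In Lmna +/+ the difference averaged 0.70 ± 1.89 with Uprt (SD, n = 8) and -2.56 ± 0.20 without Uprt (SD, n = 3), with an exact permutation p of 0.0182 and the same adjusted value. Both passed at Ryr2. At Casq2 neither did: the upstream interval minus the main end was higher with Uprt by 0.197 in Lmna F/F (exact permutation p = 0.176, adjusted 0.211) and by 4.96 in Lmna +/+ (exact permutation p = 0.503, adjusted 0.503). In Lmna +/+ the upstream interval of Casq2 had a share over 20% in 5 of 8 mice with Uprt and 1 of 3 without. The 4.96 depends on how those mice fell between the groups and cannot be read as label alone. At Ryr2 in Lmna +/+ the unadjusted p was 0.0667, 0.0889 and 0.0889 without Lmna +/+ no Uprt replicate 1, 2 or 3.

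The main end of Casq2 had the lowest T>C share of the main ends, background included. Its share had a lowest, median and highest value of 1.74%, 2.17% and 2.95% in Lmna F/F mice with Uprt, against 0.875%, 1.14%, 1.14% and 1.05% in Lmna F/F mice without Uprt. In Lmna +/+ mice it was 1.38%, 1.75% and 2.62% with Uprt, against 0.924%, 1.04% and 1.04% without Uprt. Mice with and without Uprt did not overlap. The log2 odds ratio was 0.89 ± 0.12 (SE, edgeR adjusted p = 3.11e-06), at percentile 37.4. This estimate was above those of the Atp2a2 distal end (0.76) and the Ryr2 end (0.27).

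**Figure D3:**
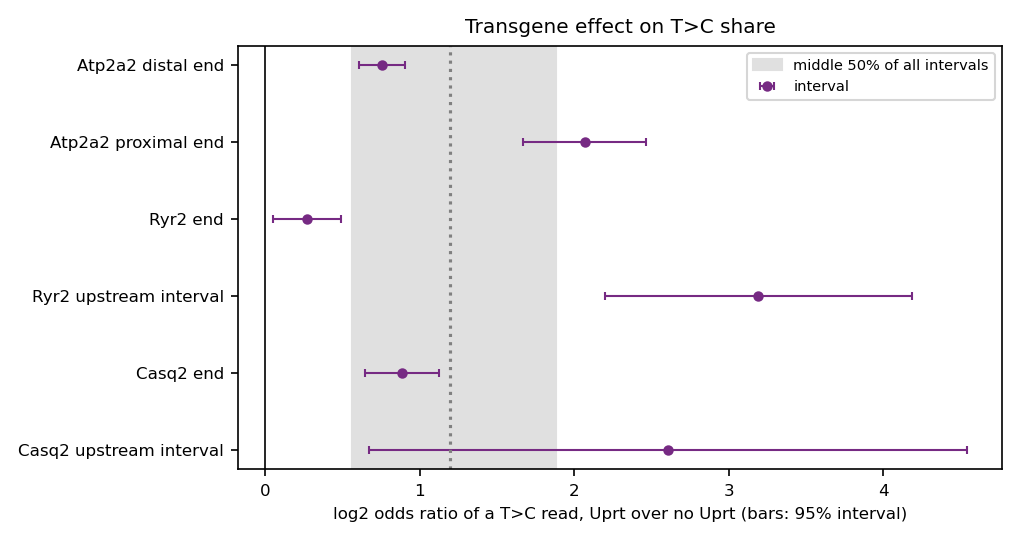
Log2 odds ratio for conversion of a read, Uprt over no Uprt (x axis), for the 6 most read intervals of Atp2a2, Ryr2 and Casq2 (y axis). Points are edgeR estimates, bars are 95% intervals, the grey band is the middle 50% of all 13298 intervals and the dotted line their median of 1.20. The Atp2a2 distal end and Casq2 end lie inside the band below its median, the Ryr2 end lies below the band, and the estimates of the 3 less read intervals lie above it. The Ryr2 upstream interval entered this test through its T>C reads in mice with Uprt, which favours a high estimate. The Casq2 upstream estimate mixes mice at 29.5% to 32.3% T>C reads, 1 of them without Uprt, and mice at 3.04% or less. In Lmna F/F mice alone, the mean share of that interval was 2.14% with Uprt and 0.641% without.

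In conversions per 1000 T bases the Ryr2 end lay above the Atp2a2 distal end in every mouse. The Atp2a2 distal end lay above the Casq2 end in every mouse, though in Lmna F/F Uprt replicate 5 both rounded to 1.94. The Ryr2 end averaged 3.80 ± 0.28, 3.48 ± 0.21, 2.84 ± 0.21 and 3.00 ± 0.61 in Lmna F/F with Uprt, Lmna +/+ with Uprt, Lmna F/F without Uprt and Lmna +/+ without Uprt (SD, n = 6, 8, 4 and 3). The Atp2a2 distal end averaged 1.81 ± 0.14, 1.65 ± 0.22, 0.951 ± 0.037 and 0.963 ± 0.135 in the same groups. The Casq2 end averaged 1.33 ± 0.33, 1.07 ± 0.24, 0.571 ± 0.056 and 0.566 ± 0.056. The order was also present in every heart without Uprt. The excess of the mean with Uprt over that without was 0.960 at the Ryr2 end, 0.863 at the Atp2a2 distal end and 0.758 at the Casq2 end in Lmna F/F mice. In Lmna +/+ mice it was 0.475 at the Ryr2 end, 0.690 at the Atp2a2 distal end and 0.501 at the Casq2 end, so the excess did not keep the order of the levels there.

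Between Lmna genotypes edgeR called the T>C share of 0 of the 9 intervals, with Uprt or without, where 0.00752% of all intervals were called in each (1 of 13298). With Uprt the log2 odds ratio, Lmna F/F over Lmna +/+, was 0.10 at the Atp2a2 distal end (interval -0.06 to 0.27), 0.34 at the proximal end (-0.09 to 0.77), 0.11 at the Ryr2 end (-0.13 to 0.35) and 0.22 at the Casq2 end (-0.04 to 0.48), each with an edgeR adjusted p of 1. Among the 9, 1 had an unadjusted p under 0.05 with Uprt and 0 without. At the same unadjusted p, 361 intervals of the series differed with Uprt and 880 without. For a difference between both Lmna effects on the share edgeR called 0 of 13298 intervals (739 were below an unadjusted p of 0.05), and 52 where at least 1 T>C read replaced the filter.

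T>C reads by themselves were compared between Lmna genotypes in the mice with Uprt, where 0.49% of 10405 intervals were called and 0.0769% were called lower. The log2 changes were -0.15 at the Atp2a2 distal end, 0.13 at its proximal end, -0.22 at the Ryr2 end, 0.28 at the Ryr2 upstream interval and 0.11 at the Casq2 end (edgeR adjusted p = 0.895, 0.954, 0.842, 0.92 and 0.955), and none of these passed. In mice without Uprt edgeR called 0 of 5 intervals (2 at an unadjusted p under 0.05, 0 by DESeq2, with 0.0506% of 7908 called), and the Atp2a2 distal end had -0.70 ± 0.29 (SE, edgeR adjusted p = 0.581). Without a low-count filter the Casq2 interval just upstream of the main end was called there (-4.42, edgeR adjusted p = 1.27e-22). The 1 call among the 8 intervals tested with Uprt was the Casq2 interval just upstream of the main end, which had fewer T>C reads in Lmna F/F (-3.09 ± 0.66, SE, edgeR adjusted p = 0.0358).

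That interval had 2 separate ranges of T>C share. In 6 of the 21 mice 29.5% to 32.3% of its reads carried a conversion, and in the other 15 mice 0.503% to 3.04% did. The 6 were Lmna +/+ Uprt replicates 3, 4, 5, 6 and 7 and Lmna +/+ no Uprt replicate 3, and none of the 10 Lmna F/F mice was among them. The share was thus high in 1 mouse that lacked the transgene, at 32.0%, against 0.507% and 0.566% in the other Lmna +/+ mice without Uprt. The level of the interval did not split in this way: it was 338.9 CPM in that mouse, against 322.4 and 245.1 CPM in the other 2, and the main end of Casq2 in the same mouse had a share of 1.04%.

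In Lmna F/F mice, where no value was high, the share of this upstream interval was 1.49% to 3.04% with Uprt, against 0.503% to 0.774% without Uprt. These ranges did not overlap. Over all mice the log2 odds ratio of Uprt against no Uprt was 2.61 ± 0.99 (SE, edgeR adjusted p = 0.0276), and it was lost without Lmna +/+ no Uprt replicate 1 (1.72, edgeR adjusted p = 0.196) or replicate 2 (1.77, edgeR adjusted p = 0.184). The log2 odds ratio of Lmna F/F over Lmna +/+ with Uprt was -2.80 ± 1.02 (SE, edgeR adjusted p = 1). The call in T>C reads was lost in 11 of the 14 omissions of a single mouse, with values from -3.33 to -2.79. Casq2 lies on chromosome 3, which in the mouse also carries Lmna. The part of a sequence difference between mice in these shares was not tested.

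**Figure D4:**
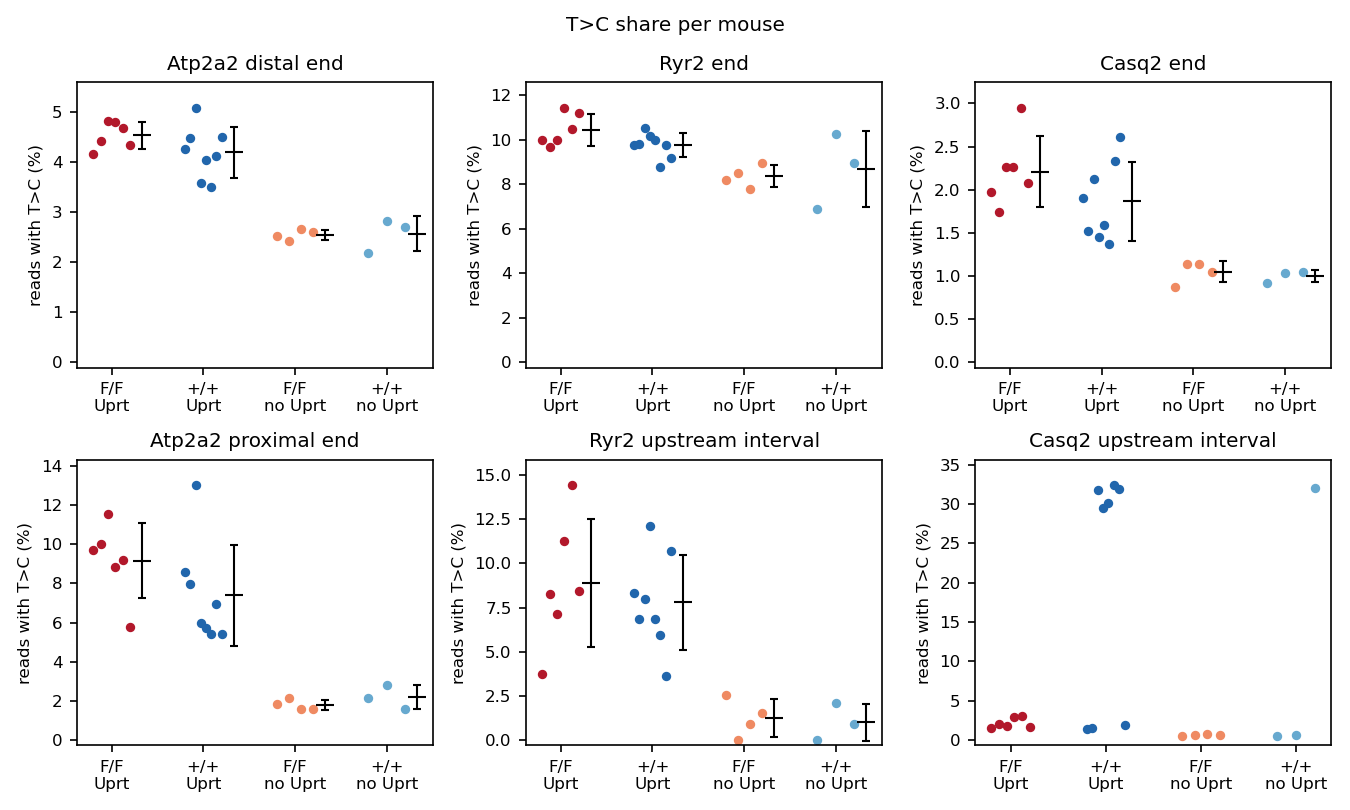
Share of T>C reads in percent (y axes, each interval on its own scale) for each mouse in the 4 groups (x axes: Lmna genotype and Uprt), with the main ends above and the less read intervals below. Points are mice and black bars are the mean ± SD, left out for the Casq2 upstream interval, whose values form 2 ranges of 0.503% to 3.04% and 29.5% to 32.3%.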

How the data were processed

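RNA from 21 left ventricular free walls was sequenced, 1 library a mouse, as single-end QuantSeq 3′ reads of 100 bases after 1.5 µg was alkylated in 12 mM iodoacetamide, per the labels' protocols. The deposited table holds, per the file headers, counts for each 3′ UTR interval and library: reads, T>C reads, multimapped reads, read T bases and conversions on them. Per the submitters' processing notes, coordinates follow mm39. Not given in the sources used here are the aligner settings, any filter on sequence variants and how many conversions mark a read.

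Overlapping intervals of a strand were reduced to the most read one. The tests of level and of T>C reads used edgeR 4.0.16 under R 4.3.3 (TMM, filterByExpr at a minimum count of 10, glmQLFit, glmQLFTest, group means and sex), levels in all 21 libraries, T>C reads in the 14 mice with Uprt and the 7 without. The T>C share was tested on converted and other reads with library effects and with group and sex effects on read type. P-values were Benjamini-Hochberg adjusted over all intervals tested, at 0.05. The SE is the log2 estimate divided by the root of its F statistic, and 95% intervals reach 1.96 SE to each side. Differences of single values between groups used two-sided exact permutation tests, without a sex term. The fits were tested on simulated counts. PCR reads without molecular identifiers are not independent, so depth covers counting error only.

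The 4 genes, their windows and the comparisons were chosen with earlier results of these data known. For the main ends, the text names the interval elsewhere with the highest Pearson r of log2 CPM (0.5 added) among tested intervals of at least 10 CPM. Replicate numbers follow accession order. The alternatives tried were DESeq2 1.42.0, its size factors, no low-count filter, no sex term, summed intervals, no mitochondrial intervals, fewer groups, conversions in place of reads, another share filter and each library left out. The tests of label differences within a mouse were added after seeing the data. So were the omissions of single mice for these tests and for the parts of reads. Promoter sequences were not used here, as the data measure 3′ ends.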

Additional observations from a re-analysis of the deposited data

Results flagged for a closer look

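Of 54 checks, each of 1 interval and 1 measure in a group of 4 to 10 mice, 4 found a mouse far from the rest by Dixon's criterion. Chance gives about 1 in 20 for a single check. The checks share mice and related measures, so the 4 cannot be set against that rate. At the Atp2a2 proximal end, Lmna +/+ Uprt replicate 3 had a T>C share of 13.01%, with the next mouse at 8.59%, and 5.03 conversions per 1000 T bases, with the next at 3.08. At the Ryr2 end, Lmna F/F no Uprt replicate 1 had 117.7 CPM, with the next mouse at 158.5 CPM. At the Casq2 end, the same Lmna F/F no Uprt replicate 1 had 0.487 conversions per 1000 T bases, with the next mouse at 0.594. The call of the Atp2a2 distal end in level without Uprt was lost when this mouse was left out.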

How the results depend on the processing

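No paired analysis was possible because the replicate numbers follow accession order and pair no mice. No result changed direction with a call. Counts of called intervals over the series that moved were as follows. Without a low-count filter they were 1591 for level between Lmna genotypes with Uprt, 329 for the difference between both Lmna effects on level, 492 for level with against without Uprt, and 171 and 246 for T>C reads with and without Uprt. DESeq2 called 1247, 8, 234, 96 and 84 in the same comparisons. With only the groups compared in the fit, level gave 1174 with Uprt and 32 without. For the share between Lmna genotypes with Uprt, without Uprt and their difference, at least 1 T>C read in place of the filter gave 27, 65 and 52. Conversions in place of reads gave 0 and 0 for the first and second of these, no sex term gave 2 for the first, and summed intervals gave 2 for the second. No sex term gave 7 for T>C reads without Uprt. With 1 library left out, the count ran from 508 to 812 for level with Uprt, 460 to 2356 without Uprt, 0 to 4 for their difference, 10 to 58 for level with against without Uprt, 0 to 3, 0 to 7 and 0 to 4 for the share between Lmna genotypes with Uprt, without Uprt and their difference, and 3 to 14 for T>C reads without Uprt. The label differences within a mouse in Lmna +/+ ran from 1.02 to 1.45 at Atp2a2 and 2.71 to 3.62 at Ryr2.

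Single intervals kept direction and side of the threshold in 1122 of 1158 alternative fits. Besides the changes given with the results, the Ryr2 end lost its share call (0.27, adjusted p = 0.361) with at least 1 T>C read in place of the filter; the same filter called the Casq2 upstream share between Lmna genotypes with Uprt (-2.80, adjusted p = 1.31e-43) and its difference between Lmna effects (-1.66, adjusted p = 0.00277), and its level with against without Uprt was called without a low-count filter (0.36, adjusted p = 0.032). The cause of these changes was not tested. Few reads limit the Ryr2 upstream shares and the Pln window.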
